A study of Mus musculus with 15 samples.

Results

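Hoxb8 macrophages were compared with the progenitor cells of the same study, using 6 of its 15 bulk RNA-seq libraries, 3 per group, and every gene in its table. The libraries were taken because their labels name these groups, and no measured value entered that choice. Both groups were mouse bone marrow cells, labelled as primary cells of wild-type genotype without treatment. The labels do not state how Hoxb8 was expressed, how long the cells were cultured or which factor made them macrophages. Nor do they say that replicate libraries were made from different cultures or mice. The p-values thus reflect the spread between these libraries alone, which may be technical. BMDM, the usual short form for macrophages grown directly from bone marrow, also wild type and untreated with 3 libraries, stand beside some results for scale. The remaining 6 libraries, CAR and control-CAR macrophages, enter only through the shared estimate of spread and the filter on low values.

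Hoxb8 is a homeobox transcription factor that keeps myeloid progenitors dividing and blocks their maturation when it is forced on. In a widely used system it is fused to the hormone-binding domain of the estrogen receptor, encoded by Esr1, so that estrogen holds the cells as progenitors and its removal lets them mature. Maturation into a macrophage is known to end cell division, switch off the granule proteases of early granulocyte-monocyte progenitors, and build up the receptors, lysosomes and inflammatory genes with which macrophages take up and answer microbes. The comparison asks which genes differ between the cells before and after this step.

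The progenitor cells expressed a dividing, granule-making programme, and the macrophages expressed surface receptors, lysosomal enzymes, ferritin, cytokines and hypoxia genes. All 28 tested S phase genes and all 30 tested G2 and M phase genes were lower in macrophages. Of 11793 genes tested, 9942 (84.3%) were called at an adjusted p under 0.05, with 5269 (44.7%) higher and 4673 (39.6%) lower in macrophages. A list with that share of its members called is therefore no different from the table as a whole. At least 2-fold changes made up 3227 of the rises and 2631 of the falls. At least 8-fold changes made up 1343 rises and 685 falls. The FPKM values of the 3 macrophage and 3 progenitor libraries did not overlap for 10436 genes (88.5%). FPKM is a level per transcript length and sequencing depth, so it can be compared between genes. A level of 10 FPKM or more in macrophages with under 1 FPKM in progenitor cells was found for 253 genes, and the reverse for 245.

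**Figure D1:**
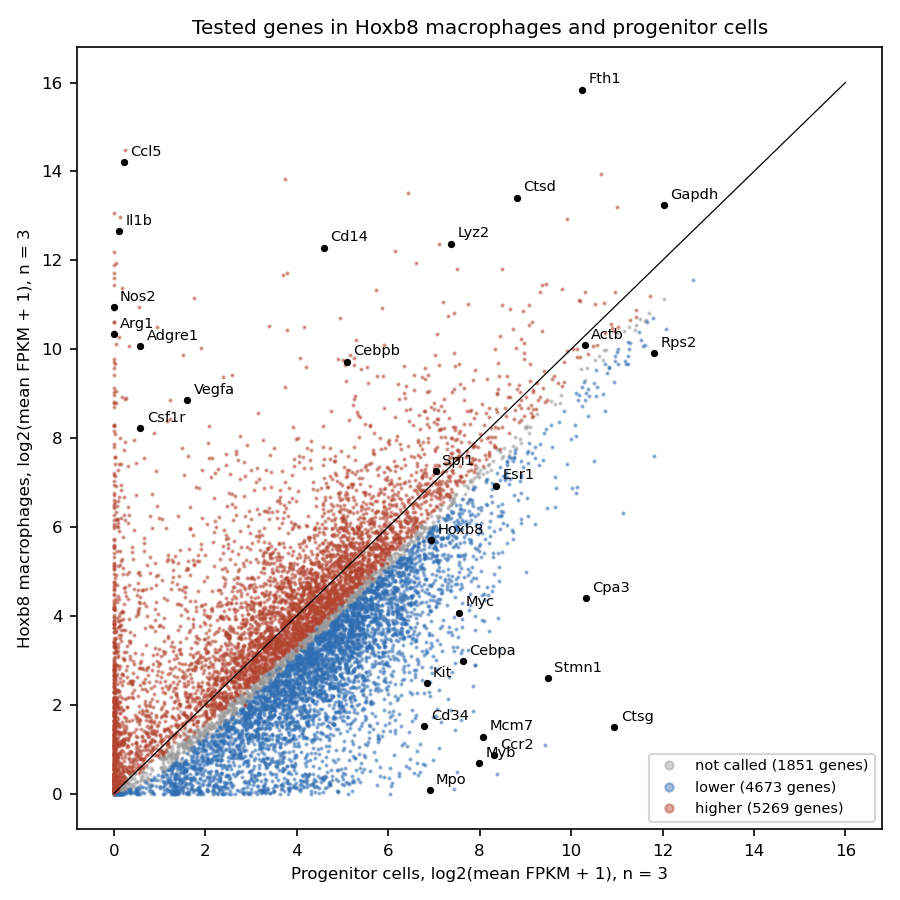
Mean level of each tested gene in progenitor cells (horizontal axis, log2(FPKM + 1)) and in Hoxb8 macrophages (vertical axis, same scale), 3 libraries each, with the line of equal level. Red points were called higher in macrophages (5269 genes), blue points lower (4673) and grey points were not called (1851), and the grey band lies below the line of equal FPKM because the test scales the libraries by TMM.

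The share of genes called higher depended on how the libraries were scaled, and every direction below is relative to TMM, which takes most genes as unaltered. TMM factors were 0.824 to 0.829 in macrophages and 1.46 to 1.47 in progenitor cells. With library totals in their place, 3123 genes were called higher and 7195 lower, and the median change of all genes moved by -0.83 on the log2 scale. On FPKM, 3045 were higher and 7173 lower, and the median moved by -0.79. On TPM, 2544 were higher and 7848 lower, with a shift of -1.09. Quantile normalisation gave 4493 and 5410 with a shift of -0.17, and the upper quartile gave 4603 and 5365 with a shift of -0.22. Levels in FPKM and log2 changes from the model therefore differ by about this shift, and where a direction turns with it the text says so.

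**Figure D2:**
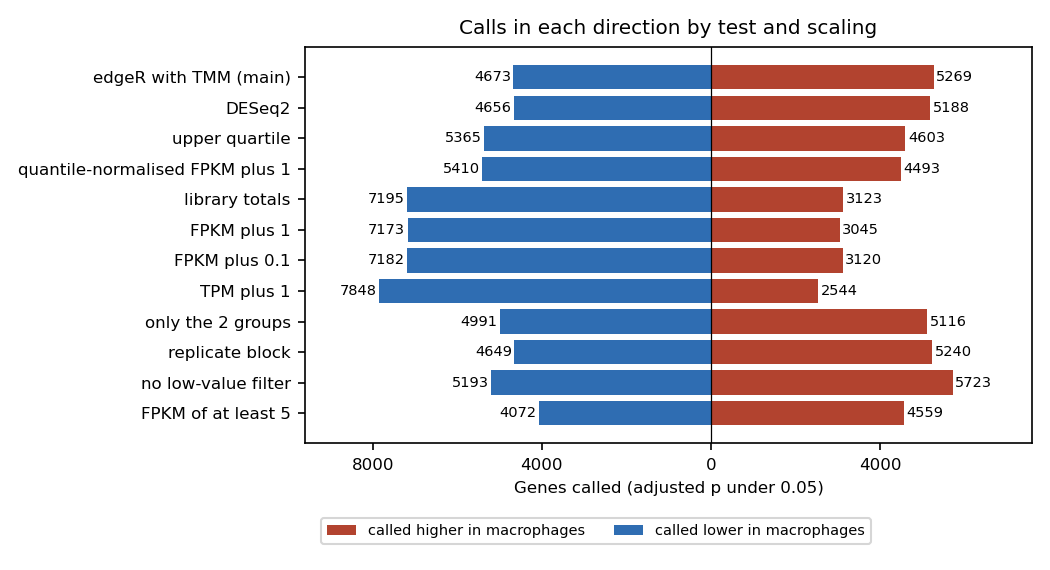
Genes called higher (red, to the right) and lower (blue, to the left) in Hoxb8 macrophages against progenitor cells under each test and scaling, with the number of genes at the end of each bar. The count called higher falls from 5269 with TMM to between 2544 and 3123 with library totals, FPKM and TPM, and stays between 4493 and 5188 with DESeq2, the upper quartile and quantile normalisation.

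The library totals were alike, from 17531784 to 18129897 estimated counts in macrophages and from 17505931 to 17964455 in progenitor cells, within 16962839 to 19221681 over all 15. The 10 most abundant genes held 12.3% to 12.6% of a macrophage library and 3.78% to 3.96% of a progenitor library. Between 13026 and 13106 genes had a count in a macrophage library and between 12539 and 12598 in a progenitor library. Libraries of a group were further apart than sampling noise allows. Chi-square over its degrees of freedom was 4.82 to 8.46 for pairs of macrophage libraries and 2.08 to 3.51 for pairs of progenitor libraries. In bulk libraries a gene carried by fewer cells and a gene with less RNA per cell cannot be told apart.

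Hoxb8 and Esr1 were read in both groups. Hoxb8 (gene 15416, chromosome 11, 96279401 to 96285325 on GRCm38.p6) stood at 48.9, 52.1 and 52.6 FPKM in the macrophages and 123, 122 and 121 FPKM in the progenitor cells. Every macrophage library was below every progenitor library, and the modelled log2 change was -0.42 (SE 0.05, adjusted p = 8.96e-07). Hoxb8 was listed at 0 in all 3 BMDM libraries. Esr1 (gene 13982, chromosome 10, 4611989 to 5005633) stood at 118, 119 and 126 FPKM in the macrophages and 330, 328 and 326 FPKM in the progenitor cells. The groups did not overlap, the log2 change was -0.56 (SE 0.07), and BMDM had 4.78 FPKM ± 0.945 (SD, n = 3). Both genes thus fell by less than 2-fold on the TMM scale. On log2(FPKM + 1) the fall was more than 2-fold, at -1.236 for Hoxb8 and -1.435 for Esr1. Neither gene was lost from the macrophages. The table gives 1 value per gene, so transcripts from an introduced copy and from the gene's own locus cannot be told apart. Hoxa9, a related homeobox gene, was listed at 0 in all 6 libraries.

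**Figure D3:**
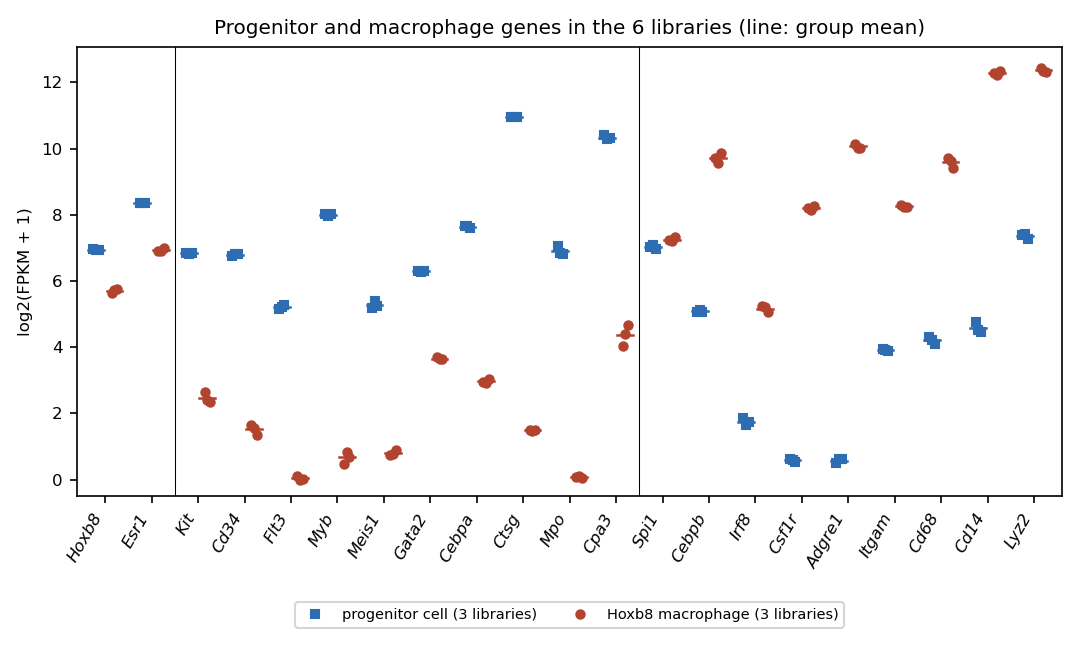
FPKM of single libraries on a log2(FPKM + 1) scale for Hoxb8 and Esr1 (left), progenitor genes (middle) and macrophage genes (right), with blue squares for the 3 progenitor libraries, red circles for the 3 Hoxb8 macrophage libraries and a line at each group mean. Hoxb8 and Esr1 stay at 48.9 FPKM or more in every macrophage library, while Flt3 and Mpo lie near 0 there and Adgre1 and Csf1r lie near 0 in the progenitor libraries.

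The progenitor label was checked against surface receptors and transcription factors of stem and progenitor cells. Kit, the receptor for stem cell factor, stood at 115, 112 and 113 FPKM in the progenitor cells and at 5.33, 4.28 and 4.09 in the macrophages. Cd34, a sialomucin of progenitor membranes, stood at 106, 112 and 111 FPKM and at 2.15, 1.94 and 1.53. Flt3, the receptor for FLT3 ligand, stood at 34.8, 35.8 and 37.8 FPKM against 0.08, 0 and 0.02. In each of these genes every progenitor library lay far above every macrophage library. The log2 changes were -3.80 (SE 0.10) for Kit, -5.05 (SE 0.10) for Cd34 and -9.41 (SE 0.26) for Flt3. Cd27, a TNF receptor family member, had no count in any macrophage library and 34.0, 33.8 and 33.9 FPKM in the progenitor cells, at least 143.3-fold higher there when 0 is set to 3 counts per library.

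The list of 18 tested progenitor receptors did not move as a whole, with 8 members higher, 9 lower and a median log2 change of -0.27 against 0.06 over all tested genes. The members that rose include the receptors through which GM-CSF acts. Csf2ra, its alpha chain, stood at 169, 174 and 160 FPKM in macrophages and at 21.8, 23.5 and 23.4 in progenitor cells, a log2 change of 3.63 (SE 0.06). Csf2rb, the shared beta chain, stood at 568, 565 and 587 FPKM against 86.1, 80.2 and 81.0, a log2 change of 3.63 (SE 0.09). Its neighbour on chromosome 15, Csf2rb2, is a near-identical copy, and how reads were split between the pair is not given in the sources used here. Its values were 250, 252 and 264 FPKM against 15.3, 15.1 and 15.8. Prom1, which encodes the membrane protein prominin, went from 0 in all progenitor libraries to 6.49, 5.44 and 6.34 FPKM, at least 210-fold higher. Slamf1, a self-binding receptor of lymphoid and stem cells, stood at 8.03, 10.5 and 9.31 FPKM against 0.13, 0.03 and 0.03.

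Of 23 tested stem and progenitor transcription factors, 19 were lower in macrophages, 1 was higher and 3 were not called, with a median log2 change of -1.91. Myb, which drives the division of progenitors, stood at 257, 249 and 258 FPKM in the progenitor cells and at 0.39, 0.8 and 0.62 in the macrophages. This was a log2 change of -7.83 (SE 0.17), with no overlap. Gfi1, a repressor of granulocyte progenitors, stood at 63.2, 65.2 and 64.3 FPKM against 0.15, 0.26 and 0.41. Hlf, a factor of stem cells, stood at 52.5, 53.1 and 52.6 FPKM against 0.17, 0.14 and 0.14. Meis1, a homeobox partner of the Hox proteins, stood at 35.3, 40.8 and 37.3 FPKM against 0.66, 0.7 and 0.86. Gata2 and Myc kept a clear level after the step. Gata2, a factor of stem and mast cells, stood at 78.0, 76.5 and 78.5 FPKM in the progenitor cells and still at 11.9, 11.4 and 11.4 in the macrophages. Myc, which drives growth and ribosome production, stood at 183, 184 and 195 FPKM against 15.3, 14.9 and 17.2. Sox4 fell by 3.86 (SE 0.09) on the log2 scale, to 2.49, 2.72 and 2.71 FPKM in macrophages. Hmga2, a chromatin protein, fell by 3.09 (SE 0.10), to 0.49, 0.77 and 0.7 FPKM.

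All 23 tested macrophage identity genes were higher in macrophages, 22 of them at least 2-fold, with a median log2 change of 5.94, and with library totals 22 were higher and 1 lower. Adgre1, the F4/80 antigen of mouse macrophages (gene 13733, chromosome 17, 57358581 to 57483529), stood at 1135, 1039 and 1037 FPKM in macrophages and at 0.41, 0.53 and 0.53 in progenitor cells. Csf1r, through which the growth factor M-CSF acts, stood at 296, 284 and 309 FPKM against 0.53, 0.5 and 0.46. Both genes sat under 1 FPKM in every progenitor library, with log2 changes of 11.92 (SE 0.17) and 10.04 (SE 0.13). Lyz2, the lysozyme of myeloid cells, was already present at 168, 171 and 155 FPKM in the progenitor cells and reached 5567, 5236 and 5107 FPKM. Cd14, which hands bacterial lipopolysaccharide to its receptor, went from 25.9, 22.1 and 21.2 FPKM to 4955, 4814 and 5203. Cd68, a lysosomal membrane protein of macrophages, went from 18.6, 17.8 and 16.1 FPKM to 846, 783 and 684. Itgam, the CD11b integrin chain, went from 14.5, 14.0 and 13.9 FPKM to 311, 302 and 301. The progenitor cells therefore held low but readable levels of several of these genes, while Adgre1 and Csf1r were near 0.

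Not every macrophage receptor reached a level of note. Mrc1, the mannose receptor CD206, stood at only 0.24, 0.27 and 0.41 FPKM in macrophages and 0.09, 0.07 and 0.05 in progenitor cells, although its log2 change of 2.97 (SE 0.44) was called. That call was lost with quantile normalisation. Mertk, which binds dying cells, stood at 0.07, 0.11 and 0.07 FPKM against 0 in all 3 progenitor libraries, and was chosen after its values were seen. Cd163, a haemoglobin scavenger receptor, did not reach the filter. In BMDM, Mrc1 stood at 5.50 FPKM ± 1.51.

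Among 33 macrophage transcription factors, 29 were higher and 4 lower in macrophages, with a median log2 change of 3.25. The C/EBP family moved in opposite directions. Cebpa, the C/EBP factor of granulocyte-monocyte progenitors, stood at 200, 200 and 192 FPKM in progenitor cells and at 6.73, 6.58 and 7.22 in macrophages. Cebpb, its relative in mature and activated macrophages, stood at 32.7, 33.9 and 32.7 FPKM and at 837, 761 and 926. The groups did not overlap in either gene, and the log2 changes were -4.02 (SE 0.07) for Cebpa and 5.50 (SE 0.12) for Cebpb. Spi1, which encodes PU.1, the central factor of myeloid cells, was high on both sides, at 148, 145 and 160 FPKM in macrophages and 130, 136 and 124 in progenitor cells. Its log2 change of 1.05 (SE 0.07) turned to -0.081 on TPM. Irf8, an interferon regulatory factor of monocytes, rose from 2.61, 2.17 and 2.32 FPKM to 36.7, 35.8 and 32.3. Id2, an inhibitor of E proteins, rose from 1.01, 0.52 and 1.13 FPKM to 158, 146 and 155.

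Factors of later macrophage states were low or came from 0. Pparg, the lipid-sensing nuclear receptor, had no count in progenitor cells and 6.04, 6.37 and 6.84 FPKM in macrophages, at least 98.4-fold higher. Batf3, an AP-1 factor of dendritic cells, had no count in progenitor cells and 13.9, 20.9 and 17.7 FPKM in macrophages, at least 74.6-fold higher. Maf reached 5.55, 6.23 and 7.22 FPKM from a single count in the progenitor group. Klf4, a zinc finger factor of monocytes, was at 0.15, 0.2 and 0.27 FPKM against 0.02, 0 and 0. BMDM held 1.52 FPKM ± 0.202 of Klf4, and the log2 difference of Hoxb8 macrophages from BMDM was -2.71 (SE 0.21).

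The azurophil granule and granulocyte-monocyte progenitor list split, with 9 of 15 members lower and 6 higher, and a median log2 change of -3.98. The serine proteases and the peroxidase of the primary granule, which kill bacteria in neutrophils, were lost. Ctsg, cathepsin G (gene 13035, chromosome 14, 56099885 to 56102574), stood at 1970, 1991 and 1968 FPKM in progenitor cells and at 1.84, 1.78 and 1.83 in macrophages, a log2 change of -9.24 (SE 0.16). Mpo, myeloperoxidase (chromosome 11, 87793784 to 87804412), stood at 132, 113 and 111 FPKM against 0.05, 0.07 and 0.03, a log2 change of -10.30 (SE 0.24). Elane and Prtn3, the elastase and proteinase 3 genes that lie side by side on chromosome 10 (79886312 to 79888216 and 79879667 to 79883174), fell together. Elane stood at 66.9, 71.6 and 57.7 FPKM against 0.28, 0 and 0.09, and Prtn3 at 234, 241 and 216 FPKM against 5.03, 3.79 and 4.15. Ms4a3, a membrane protein of granulocyte-monocyte progenitors, stood at 690, 686 and 675 FPKM against 0.9, 1.15 and 1.31. The list's largest riser was Hp, haptoglobin, which binds free haemoglobin. It stood at 1564, 1398 and 1452 FPKM in macrophages and 10.8, 9.29 and 8.38 in progenitor cells.

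Other genes with the largest falls lay outside the granule. Muc13, a membrane mucin, stood at 326, 342 and 325 FPKM in progenitor cells and at 0.2, 0.53 and 0.32 in macrophages. Ccr2, the receptor for the monocyte chemoattractant CCL2, stood at 330, 302 and 324 FPKM against 0.77, 0.73 and 0.97, a log2 change of -7.75 (SE 0.19). It was the 1 called fall among 19 tested CC chemokine genes. Emid1 and Glb1l2 fell from 168 to 177 FPKM and from 178 to 182 FPKM to at most 0.15 and 0.63 FPKM.

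Neutrophil genes were the opposite, and stand here as markers of another cell type. All 19 tested late granule and neutrophil genes were higher in macrophages, 18 of them at least 2-fold, and with library totals 18 were higher and 1, Padi4, lower (chosen after its values were seen). Their summed level was 26300 to 32300 FPKM in macrophage libraries and 18.7 to 22.1 FPKM in progenitor libraries. The median log2 change was 10.95, or 9.27 with genes at 0 set to their bound. S100a8 and S100a9, the calprotectin subunits that neutrophils hold in bulk, had no count in any progenitor library. S100a8 stood at 898, 722 and 1026 FPKM and S100a9 at 305, 353 and 278 in macrophages, which is at least 879.7-fold higher for the former and at least 716.9-fold for the latter. Ngp, neutrophilic granule protein, had no count in progenitor cells and 85.6, 81.7 and 89.3 FPKM in macrophages. Mmp8, the neutrophil collagenase, went from 0.13, 0.18 and 0.13 FPKM to 42.5, 52.4 and 65.3. Ly6g, the surface marker used to gate neutrophils, stood at 7.46, 9.41 and 11.81 FPKM against 0, and Cxcr2 at 1.32, 2.01 and 2.31 FPKM against 1.19, 0.8 and 0.79, both chosen after their values were seen. Whether a minor share of neutrophils carried these genes was not tested. Against BMDM, 5 of the 19 were higher and 13 lower in Hoxb8 macrophages, and BMDM held 4538 FPKM ± 2009 of S100a8 and 1243 FPKM ± 121 of Mmp8.

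The largest share of that summed level was Lcn2, the iron-siderophore binding lipocalin of neutrophils and activated macrophages, at 14287, 13768 and 15682 FPKM against 12.96, 13.4 and 11.03, and it was chosen after its values were seen. Next came genes of a cluster on chromosome 16 that encodes stefin A proteins, small inhibitors of cysteine cathepsins. Cstdc4 (36184212 to 36188111) stood at 23501, 19697 and 25934 FPKM in macrophages against 0.54, 0 and 0. Stfa3 (36450537 to 36455392) stood at 8607, 6987 and 10016 FPKM, Csta2 at 7955, 7702 and 8424, Cstdc5 at 3247, 3072 and 3806 and Stfa2 at 2669, 3018 and 3645. The progenitor libraries held no count of Stfa3, Stfa2 or Cstdc5 and a single count each of Cstdc4 and Csta2. The members are near-identical copies, so the split of reads between them is uncertain, while all 5 moved from near 0 to at least 2669 FPKM. Stfa3 and Stfa2 are members of the neutrophil list, and the others are not. Against BMDM the log2 differences ran from 2.09 (SE 0.10) for Stfa3 to 3.40 (SE 0.08) for Csta2.

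Genes of other cell types were read in the same way. Of 14 tested mast cell and basophil genes 3 were higher, 6 lower and 5 not called, with a share lower near that of all genes and a median log2 change of 0. The summed level of 15 members, tested or not, was 1760 to 1880 FPKM in progenitor libraries and 440 to 445 in macrophage libraries. Cpa3, a mast cell carboxypeptidase also found in progenitors, made up most of the progenitor sum, with 1348, 1239 and 1265 FPKM against 15.5, 20.2 and 24.5, a log2 change of -5.10 (SE 0.14). Hdc, which makes histamine, was high in both, at 394, 382 and 363 FPKM in macrophages and 293, 282 and 267 in progenitor cells. Prss34, a basophil protease, overlapped between groups, with 8.03, 11.1 and 17.5 FPKM against 10.2, 9.33 and 9.45, and its called log2 change of 1.17 turned to -0.024 on TPM. Of 8 tested eosinophil genes 5 were higher and 1 lower. With untested members included, 9 genes summed to 106 to 175 FPKM in macrophages and 71.4 to 76.0 in progenitor cells. Prg2, the eosinophil major basic protein, stood at 89.3, 117 and 158 FPKM against 0.11 in each progenitor library. Mcpt8, a basophil protease, stood at 6.09, 7.0 and 13.2 FPKM in macrophages and 29.2, 29.6 and 25.9 in progenitor cells. Macrophage replicate 3 was the highest of its group for Prss34, Prg2, Mcpt8, Mmp12, Mmp13 and Arg1.

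Platelet, dendritic, lymphoid and stromal genes were mixed. Pf4, platelet factor 4, stood at 912, 832 and 866 FPKM in macrophages and 29.4, 31.3 and 33.4 in progenitor cells, and 10 of the 20 megakaryocyte and erythroid genes did not reach the filter. Itga2b, the platelet integrin chain, fell from 91.1, 92.2 and 87.5 FPKM to 1.95, 2.19 and 2.21. Of 11 tested dendritic cell genes 7 were higher and 2 lower. With untested members included, 14 genes summed to 350 to 377 FPKM in macrophages and 153 to 166 in progenitor cells. Of 7 osteoclast genes 6 were higher, among them Acp5, an acid phosphatase, at 156, 186 and 173 FPKM against 0.42, 0.46 and 0.33. Of the B cell genes, 2 of 7 tested were higher and 5 were not called, while among T and NK cell genes 4 were tested, with 1 higher and 2 lower. Cd3e, Cd4 and Cd8a, which define T cells, did not reach the filter. The 13 fibroblast and stroma genes, 8 of them tested, summed to 20.3 to 23.1 FPKM in macrophages and 23.4 to 24.8 in progenitor cells. Pdgfrb made up most of both sums. Pdgfrb had 17.6, 15.3 and 14.8 FPKM in macrophages and 23.02, 22.15 and 21.85 in progenitor cells, and its called log2 change of 0.33 turned to -0.502 with library totals. The part of these cell types in other results was not tested.

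Genes of DNA replication and mitosis fell without exception. In S phase, 28 of 28 tested genes were lower, each at least 2-fold, with a median log2 change of -4.55. In G2 and M phase the count was 30 of 30, also at least 2-fold, with a median of -4.96. The summed level went from 2980 to 3000 FPKM in progenitor libraries to 192 to 230 in macrophage libraries for S phase, and from 1810 to 1860 to 43.9 to 54.8 for G2 and M phase. All members of both lists were lower under every scaling run.

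Mcm7, a subunit of the replicative helicase, stood at 267, 269 and 268 FPKM in progenitor cells and at 1.14, 1.48 and 1.67 in macrophages, a log2 change of -6.69 (SE 0.09). Rrm2, the regulated subunit of ribonucleotide reductase, stood at 127, 121 and 127 FPKM against 0.7, 0.9 and 0.49. Pole, the leading-strand DNA polymerase, stood at 23.1, 22.3 and 23.2 FPKM against 0.02, 0.04 and 0.02, and had the largest fall of the S phase list at -8.83 (SE 0.14). No library of either group approached the other in these genes. Cdc20, which triggers the exit from metaphase, stood at 97.5, 99.8 and 103 FPKM against 0.39, 0.33 and 0.31, a log2 change of -7.34 (SE 0.14). Ccna2 and Ccnb2, the cyclins of S phase and mitosis, stood at 71.8 to 75.8 and 81.8 to 85.3 FPKM in progenitor cells and at most at 0.65 and 0.74 in macrophages. Stmn1, a microtubule-destabilising protein of dividing cells, went from 730, 694 and 728 FPKM to 5.35, 4.78 and 4.96. Mki67, the proliferation antigen Ki-67, kept more than most, at 6.53, 6.81 and 4.65 FPKM against 81.8, 77.3 and 78.9, a log2 change of -2.92 (SE 0.13). In BMDM these genes stood between the other groups, with 19.7 FPKM ± 1.32 of Mcm7 and 16.8 FPKM ± 1.89 of Cdc20.

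Promoters of these genes are shown because the members moved together and well-known promoter elements belong to this programme. E2F sites bind the factors that switch on replication genes, and the cell cycle homology region (CHR), often with CCAAT boxes nearby, holds mitotic genes off in resting cells. The windows are RefSeq promoters on GRCm38.p6, 250 bases before to 50 after a start, available for 9535 of the 11793 tested genes. Capitals mark the motif matches on either strand, with E2F sought as TTTGGCGC or TTTCCCGC, CHR as TTTGAA and CCAAT as itself. The first is Mcm5, a helicase subunit (chr8:75109259-75109558, plus strand), with E2F marked. The next are Cdc20 (chr4:118437294-118437593, minus strand) and Ccnb2 (chr9:70421505-70421804, minus strand), with CHR and CCAAT marked.
Mcm5: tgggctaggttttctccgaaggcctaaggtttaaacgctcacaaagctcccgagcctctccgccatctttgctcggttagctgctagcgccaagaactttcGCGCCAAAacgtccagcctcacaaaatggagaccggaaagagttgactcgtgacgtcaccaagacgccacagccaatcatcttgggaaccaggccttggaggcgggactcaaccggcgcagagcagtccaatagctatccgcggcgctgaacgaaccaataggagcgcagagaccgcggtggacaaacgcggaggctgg
Cdc20: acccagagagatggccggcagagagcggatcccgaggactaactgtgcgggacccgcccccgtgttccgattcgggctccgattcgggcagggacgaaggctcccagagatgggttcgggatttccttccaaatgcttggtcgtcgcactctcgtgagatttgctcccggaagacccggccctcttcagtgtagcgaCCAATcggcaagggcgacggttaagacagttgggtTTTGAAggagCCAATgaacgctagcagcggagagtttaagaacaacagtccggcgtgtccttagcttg
Ccnb2: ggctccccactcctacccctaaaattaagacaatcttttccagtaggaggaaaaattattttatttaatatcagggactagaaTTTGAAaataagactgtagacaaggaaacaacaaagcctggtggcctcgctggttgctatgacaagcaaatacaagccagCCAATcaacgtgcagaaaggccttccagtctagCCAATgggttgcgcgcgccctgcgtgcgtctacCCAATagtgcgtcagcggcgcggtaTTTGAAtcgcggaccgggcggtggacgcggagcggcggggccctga

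The E2F match in Mcm5 began at position -149 from the start. Of the 23 S phase genes with a window 7 (30.4%) held the E2F letters, beside 3.48% of all windows, and 1 of 24 G2 and M phase genes did. CHR and CCAAT together were found in 19 of the 24 G2 and M phase windows (79.2%), beside 6.25% of all windows and 2 of 23 S phase windows. CHR letters alone were found in 14.7% and CCAAT in 43.3% of all windows. A match describes letters in the window and is not a measured binding site. The values behind the windows shown were a fall of Mcm5 from 131, 144 and 136 FPKM to 1.15, 1.0 and 0.92, and the values of Cdc20 and Ccnb2 given above.

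Regulators of the cell cycle moved in both directions. Cdkn1a, the p21 inhibitor of cyclin-dependent kinases, stood at 915, 827 and 924 FPKM in macrophages and 35.3, 37.0 and 39.4 in progenitor cells, a log2 change of 5.41 (SE 0.07). Cdkn2b, the p15 inhibitor, stood at 28.3, 28.9 and 33.0 FPKM against 0.79, 0.62 and 0.79. Ccng2, a cyclin of arrested cells, stood at 109, 93.0 and 102 FPKM against 12.03, 10.67 and 11.61. All macrophage libraries were above all progenitor libraries for these genes. Cdkn2c, the p18 inhibitor of the same kinases, went the other way and fell by 3.57 on the log2 scale. E2f8, an E2F repressor made during S phase, fell from 43.9, 40.2 and 40.1 FPKM to 0.72, 0.66 and 0.44. Ccnd2, a D-type cyclin, fell from 45.4, 46.2 and 46.3 FPKM to 12.4, 12.8 and 13.6, while Ccnd1, another, was under 1 FPKM in all 6 libraries. The list of 27 had 14 higher and 13 lower, which became 10 higher and 16 lower with library totals.

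The macrophages carried lower levels of the genes that build ribosomes. All 30 tested ribosome biogenesis genes were lower, 29 of them at least 2-fold, with a median log2 change of -2.72 and the same 30 under every scaling run. Dkc1, the pseudouridine synthase of small nucleolar RNPs, stood at 99.6, 97.7 and 97.9 FPKM in progenitor cells and at 1.18, 0.54 and 1.1 in macrophages, a log2 change of -5.91 (SE 0.11). Nop58, a core protein of the same particles, stood at 142, 132 and 138 FPKM against 3.15, 4.57 and 4.29. Polr1b, a subunit of RNA polymerase I, stood at 36.2, 35.4 and 36.2 FPKM against 1.4, 1.31 and 1.06. Cytosolic ribosomal protein genes fell far less, with 20 of 31 lower, 3 higher, 8 not called and a median of -0.41, and all 31 were lower with library totals, FPKM, TPM or quantile normalisation. Rps2 stood at 3493, 3690 and 3621 FPKM in progenitor cells and at 959, 961 and 977 in macrophages, a log2 change of -1.06 (SE 0.06). In a list of 24 mitochondrial ribosomal protein genes 23 were lower, with a median of -0.95. Over all tested symbols that begin with Mrpl 37 of 49 were lower and 6 higher, and over those with Mrps 24 of 29 were lower and 2 higher, a grouping chosen after the values were seen. The member of the list that rose was Mrpl45, at 87.8, 80.3 and 82.8 FPKM in macrophages and 21.3, 23.8 and 22.8 in progenitor cells.

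Enzymes that supply nucleotides and one-carbon units fell with them. Of 22 nucleotide synthesis genes 18 were lower and 4 higher, with a median log2 change of -2.35. Ctps, which makes CTP, stood at 43.9, 42.6 and 44.6 FPKM in progenitor cells and at 1.32, 1.07 and 1.07 in macrophages. Cad, the enzyme that opens pyrimidine synthesis, stood at 65.5, 67.1 and 68.5 FPKM against 2.35, 2.42 and 2.46. Impdh2, which commits purines to GTP, stood at 240, 238 and 239 FPKM against 11.83, 12.04 and 11.77. The log2 changes were -4.40, -3.96 and -3.50. Of 15 serine and one-carbon genes 10 were lower and 4 higher. Shmt1 and Shmt2, the cytosolic and mitochondrial serine hydroxymethyltransferases, fell by 7.02 (SE 0.13) and 4.37 (SE 0.13) on the log2 scale. Aldh1l2, a mitochondrial folate dehydrogenase, rose from 0.42, 0.49 and 0.37 FPKM to 23.01, 20.34 and 19.57. Of 24 sterol and fatty acid synthesis genes 18 were lower and 1 higher. Fasn, fatty acid synthase, stood at 94.1, 94.4 and 95.1 FPKM in progenitor cells and at 6.18, 5.73 and 4.34 in macrophages, a log2 change of -3.30 (SE 0.14).

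Chromatin genes also leaned down, with 20 of 26 lower, 3 higher and a median log2 change of -2.37. Dnmt3b, a DNA methyltransferase of early cells, stood at 25.3, 24.5 and 26.6 FPKM in progenitor cells and at 0.2, 0.12 and 0.13 in macrophages. Uhrf1, which brings maintenance methylation to new DNA, stood at 129, 135 and 128 FPKM against 2.37, 2.43 and 2.32. Lmnb1, lamin B1 of the nuclear envelope, stood at 140, 141 and 144 FPKM against 1.85, 2.14 and 2.17. In all of them the macrophage libraries were at or below 2.43 FPKM.

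Central metabolism changed by branch. Of 32 glycolysis and hypoxia genes 30 were higher, 29 at least 2-fold, with a median log2 change of 2.5, and 28 to 29 were higher under every other scaling run. Slc2a1, the glucose carrier GLUT1, stood at 877, 842 and 899 FPKM in macrophages and 26.7, 31.2 and 29.4 in progenitor cells, a log2 change of 5.74 (SE 0.07). Vegfa, the vascular growth factor, stood at 466, 434 and 486 FPKM against 1.81, 2.09 and 2.24, a log2 change of 8.67 (SE 0.14). Ero1l, an oxidase of the endoplasmic reticulum, stood at 1915, 1773 and 2104 FPKM against 59.3, 53.4 and 57.9. Egln3, a prolyl hydroxylase that marks HIF for destruction and is itself a HIF target, stood at 782, 708 and 762 FPKM against 43.5, 41.1 and 40.3. Gapdh, a glycolytic enzyme often taken as a loading control, stood at 9639, 9514 and 9870 FPKM against 3956, 4408 and 4110, a log2 change of 2.05 (SE 0.07) that turned to -0.706 with quantile normalisation. No macrophage library overlapped the progenitor range in these genes.

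The promoter of Ankrd37, an ankyrin repeat gene known as a HIF target, is shown with the core of the hypoxia response element, ACGTG, in capitals (RefSeq, GRCm38.p6, chr8:45999801-46000100, minus strand).
Ankrd37: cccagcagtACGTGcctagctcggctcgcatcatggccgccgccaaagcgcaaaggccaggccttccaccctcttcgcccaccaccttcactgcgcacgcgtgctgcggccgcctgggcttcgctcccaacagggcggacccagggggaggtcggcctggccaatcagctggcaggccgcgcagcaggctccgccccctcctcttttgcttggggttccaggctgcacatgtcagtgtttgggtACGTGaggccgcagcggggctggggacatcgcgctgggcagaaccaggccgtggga

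Ankrd37 stood at 42.2, 40.5 and 37.7 FPKM in macrophages and 0.91, 1.48 and 1.45 in progenitor cells, a log2 change of 5.77 (SE 0.19), and its window held 2 matches. The core was found in 22 of the 30 windows of the glycolysis and hypoxia list (73.3%), beside 29.5% of all windows, 26.1% of S phase windows and 29.2% of G2 and M phase windows. These letters are short and frequent, and also occur inside the lysosomal element TCACGTGA.

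The TCA cycle and the respiratory chain moved the other way or little. Of 20 TCA cycle genes 13 were lower and 5 higher. Idh2, the mitochondrial isocitrate dehydrogenase, stood at 323, 340 and 342 FPKM in progenitor cells and at 15.3, 13.5 and 14.7 in macrophages, a log2 change of -3.69 (SE 0.07). Idh3a, of the NAD-dependent form, stood at 58.6, 58.7 and 59.4 FPKM against 4.09, 4.92 and 5.42. Acod1, which turns aconitate into the antimicrobial itaconate, stood at 2075, 1964 and 1843 FPKM in macrophages and 0.4, 0.46 and 0.53 in progenitor cells, a log2 change of 12.86 (SE 0.13). It was the member with the largest rise. Of 30 nuclear-encoded respiratory chain genes 16 were lower, 6 higher and 8 not called, with a median of -0.25, and 29 were lower with library totals. Atp5b, a subunit of ATP synthase, stood at 996, 1031 and 1028 FPKM in progenitor cells and at 250, 243 and 264 in macrophages. Ndufa1 overlapped between groups, at 198, 219 and 205 FPKM against 194, 232 and 202, and its called change of 0.86 turned to -0.013 on FPKM.

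Lysosomal genes rose as a group, with 35 of 37 tested members higher and none lower, and a median log2 change of 2.20. With library totals 30 were higher and 5 lower. Ctsd, cathepsin D, stood at 11281, 10568 and 10780 FPKM in macrophages and 447, 462 and 433 in progenitor cells, a log2 change of 5.44 (SE 0.10). It alone took 1.75% ± 0.0490 of the macrophage counts (SD, n = 3). Psap, the precursor of the saposins that help digest lipids, stood at 3511, 3646 and 3537 FPKM against 175, 188 and 182. Ctss, the cathepsin that trims the invariant chain, stood at 260, 249 and 233 FPKM against 0.33, 0.16 and 0.61. Lgmn, legumain, was low in both, at 8.67, 9.66 and 8.04 FPKM against 0, 0.07 and 0, and reached 162 FPKM ± 13.6 in BMDM. The vacuolar proton pump, which acidifies lysosomes, had 17 of 18 members higher and 1 lower, which became 11 higher on TPM. Atp6v0c, of its membrane ring, stood at 1225, 1224 and 1341 FPKM against 338, 358 and 338.

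Receptors for particles and microbes rose in most lists. Among Fc receptors and ITAM signalling genes 18 of 23 were higher and 5 lower. Trem2, a lipid-sensing receptor, stood at 266, 268 and 284 FPKM in macrophages with 1 count in the progenitor group. Lilrb4a, an inhibitory receptor, stood at 1538, 1419 and 1373 FPKM against 17.3, 15.9 and 17.5, a log2 change of 7.18 (SE 0.07). Among scavenger receptors 9 of 12 were higher and 1 lower. Marco, which binds bacteria, had no count in progenitor cells and 456, 470 and 318 FPKM in macrophages, at least 7035-fold higher. Msr1, the class A scavenger receptor, had no count in progenitor cells and 33.6, 33.4 and 30.2 FPKM, at least 676.6-fold higher. Of 20 genes for the uptake of dying cells 12 were higher and 4 lower. The scavenger receptor that fell was Megf10, a receptor for dying cells, from 8.99, 9.97 and 9.96 FPKM to at most 0.01. All 13 tested C-type lectin receptors were higher. Clec4n, dectin-2, stood at 847, 779 and 806 FPKM with 1 count in the progenitor group. Clec4d, by contrast, was already at 63.5, 59.0 and 53.1 FPKM in progenitor cells and rose to 683, 630 and 709.

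Sensors of microbial products and complement followed. Among Toll-like receptors and sensors 25 of 29 were higher and 3 lower, with a median log2 change of 3.23. Tlr2, which reads bacterial lipoproteins, stood at 130, 110 and 112 FPKM in macrophages and 2.79, 2.03 and 2.6 in progenitor cells. Nlrp3, the inflammasome sensor, stood at 129, 125 and 137 FPKM with 1 count in the progenitor group. Of 17 complement genes 14 were higher and none lower. C3, the central component, stood at 1030, 1019 and 1085 FPKM against 2.87, 2.5 and 2.9, a log2 change of 9.40 (SE 0.11). Cfb, factor B, went from 0 to 93.5, 71.5 and 64.3 FPKM, at least 1950-fold higher. Of 11 NADPH oxidase genes 10 were higher. Cybb, the catalytic subunit of the oxidase, had no count in progenitor cells and 255, 222 and 185 FPKM in macrophages, at least 10274-fold higher. Its partner Cyba was already at 347, 368 and 356 FPKM in progenitor cells and rose to 2047, 1924 and 2169.

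Cytokine and chemokine genes went from near 0 to some of the highest levels in the macrophages. Of 27 inflammatory cytokines and enzymes 24 were higher and 1 lower, with a median log2 change of 7.70, or 7.02 with genes at 0 set to their bound. Il1b (gene 16176, chromosome 2, 129364569 to 129371164), the secreted interleukin 1 beta, stood at 6561, 6216 and 6486 FPKM in macrophages and at 0.06, 0.03 and 0.16 in progenitor cells, a log2 change of 16.80 (SE 0.15). The progenitor group held only 5 counts of Il1b, so this SE understates the counting error. Il1a, its neighbour, stood at 2056, 1832 and 1838 FPKM with no count in progenitor cells, at least 33385-fold higher. Il6 stood at 470, 458 and 480 FPKM against 0.14, 0.2 and 0.21. Tnf, which was already read in the progenitor cells at 3.75, 3.64 and 4.09 FPKM, stood at 195, 149 and 127 in macrophages, a log2 change of 6.19 (SE 0.19). Csf3, the granulocyte growth factor G-CSF, stood at 318, 302 and 313 FPKM with no count in progenitor cells. Saa3, an acute phase protein, stood at 3631, 3710 and 4348 FPKM with 1 count in the progenitor group, a ratio of 130378 whose counting interval runs from 23400 to 5149742. The labels call both groups untreated.

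Among the CC chemokines and receptors 17 of 19 were higher. Ccl5, which draws T cells and monocytes, stood at 19682, 20006 and 17012 FPKM in macrophages and at 0, 0 and 0.51 in progenitor cells. Ccl22, which draws regulatory T cells, had no count in progenitor cells and 581, 544 and 545 FPKM, at least 8774-fold higher. Ccl6 stood at 1247, 1203 and 1254 FPKM against 0.05, 0.2 and 0. Among the CXC genes 9 of 12 were higher and none lower. Cxcl3 and Cxcl2, the neutrophil attractants, had no count in progenitor cells. Cxcl3 stood at 4432, 4346 and 5156 FPKM and Cxcl2 at 2668, 2623 and 3014 in macrophages, which is at least 34589-fold higher for Cxcl3 and at least 22504-fold for Cxcl2.

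The enzyme that makes nitric oxide and its competitor for arginine were high in the same libraries. Nos2, the inducible nitric oxide synthase (gene 18126, chromosome 11, 78920787 to 78960226), stood at 2132, 2025 and 1784 FPKM in macrophages and at 0 in every progenitor library, at least 80041-fold higher. Arg1, the arginase that splits the same substrate, stood at 1084, 1155 and 1643 FPKM and at 0, at least 15853-fold higher. Slc7a2, which carries arginine into the cell, stood at 109, 111 and 103 FPKM and at 0, at least 8376-fold higher. Ass1, which helps remake arginine, stood at 291, 288 and 338 FPKM against 46.0, 50.4 and 46.7. Srm, spermidine synthase of the polyamine branch, fell from 188, 195 and 197 FPKM to 6.75, 7.63 and 9.47. Of the 18 genes of the list 11 were higher and 7 lower, which turned to 7 and 10 with library totals.

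The NF-kB system is known to drive many cytokine and chemokine genes, and is held back by inhibitors that it induces itself. All 20 tested members of its list rose, 19 of them at least 2-fold, with 19 higher and 1 lower under library totals. Whether NF-kB drove the rises seen here was not tested. Nfkbia, the inhibitor that returns NF-kB to the cytoplasm, stood at 596, 591 and 522 FPKM in macrophages and at 13.1, 13.1 and 10.9 in progenitor cells, a log2 change of 6.36 (SE 0.11). Tnfaip3, the ubiquitin editor A20, stood at 128, 118 and 102 FPKM against 2.48, 3.0 and 2.47. Traf1, a TNF receptor adaptor, stood at 190, 186 and 195 FPKM against 0.05, 0 and 0. Of the immediate early and AP-1 genes 18 of 22 were higher and 3 lower. Atf3, a stress-induced repressor, stood at 494, 454 and 492 FPKM against 0.34, 0.03 and 0.21, a log2 change of 12.07 (SE 0.15). Junb stood at 661, 583 and 611 FPKM against 32.3, 35.4 and 31.2.

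Promoters of Nfkbia (chr12:55492598-55492897, minus strand) and Cxcl2 (chr5:90903649-90903948, plus strand) are shown with matches to the NF-kB consensus in capitals, since both are known targets and both rose here.
Nfkbia: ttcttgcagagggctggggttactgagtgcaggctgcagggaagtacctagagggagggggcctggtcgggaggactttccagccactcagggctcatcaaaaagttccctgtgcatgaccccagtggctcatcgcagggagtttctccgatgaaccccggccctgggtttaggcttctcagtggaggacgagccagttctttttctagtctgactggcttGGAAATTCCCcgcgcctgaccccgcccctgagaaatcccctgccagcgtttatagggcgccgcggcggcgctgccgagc
Cxcl2: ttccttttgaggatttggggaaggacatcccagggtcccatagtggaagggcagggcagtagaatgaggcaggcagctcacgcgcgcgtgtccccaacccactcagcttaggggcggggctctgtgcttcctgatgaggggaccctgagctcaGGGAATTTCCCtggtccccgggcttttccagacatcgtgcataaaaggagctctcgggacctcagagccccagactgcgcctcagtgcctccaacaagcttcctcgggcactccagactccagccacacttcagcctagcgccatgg

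The match lay at -29 in Nfkbia, and 2 overlapping matches began at -97 in Cxcl2. NF-kB consensus letters were found in 9 of 16 windows of the NF-kB list (56.2%) and in 3 of 18 windows of the inflammatory list (16.7%), beside 6.30% of all windows. The first of these counts was added after its values were seen. PU.1 was sought as GAGGAAGT, which 4.04% of all windows held and none of the 16 macrophage identity windows did. The lysosomal element TCACGTGA was found in 4 of 29 lysosomal windows (13.8%), beside 2.24% of all windows.

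Interferon-stimulated genes were higher in all 25 tested cases, with a median log2 change of 3.43, or 2.61 with genes at 0 set to their bound. Library totals gave 21 higher and 1 lower. Their level stayed moderate, with 26 members, tested or not, summing to 835 to 902 FPKM in macrophages and 214 to 221 in progenitor cells. Isg15, a ubiquitin-like protein, stood at 152, 155 and 139 FPKM against 3.76, 3.98 and 3.07, a log2 change of 6.20 (SE 0.16). Rsad2, viperin, stood at 20.03, 20.23 and 15.5 FPKM against 0.53, 0.64 and 0.59. Bst2, tetherin, was already at 111, 123 and 117 FPKM in progenitor cells and stood at 296, 314 and 294 in macrophages.

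MHC class I genes had 11 of 19 members higher and 5 lower, and 8 higher and 9 lower with quantile normalisation. B2m, the light chain, stood at 2809, 2796 and 2769 FPKM in macrophages and 676, 628 and 660 in progenitor cells, a log2 change of 2.94 (SE 0.08). H2-K1, a heavy chain with near-identical relatives, stood at 1378, 1357 and 1487 FPKM against 422, 437 and 408. MHC class II genes had 8 of 14 higher and 3 lower. Cd74, the invariant chain, stood at 1034, 1075 and 1128 FPKM against 0.16, 0.37 and 0.23, a log2 change of 12.81 (SE 0.14). H2-Ab1, a class II beta chain, reached only 34.7, 37.6 and 38.1 FPKM from 2.47, 2.52 and 2.52. Its alpha partner H2-Aa was at 0.35, 0 and 0 FPKM in macrophages and was not called, and Ciita, the class II transactivator, was at 0.02, 0 and 0.01 FPKM against 0.01, 0.05 and 0.01, both chosen after their values were seen. BMDM held 270 FPKM ± 17.9 of H2-Ab1, 171 FPKM ± 8.08 of H2-Aa and 4.07 FPKM ± 0.249 of Ciita.

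Iron genes included the most abundant transcript of the macrophages. Fth1, which encodes the heavy subunit of the iron store ferritin, stood at 57739, 60810 and 57203 FPKM in macrophages and 1119, 1226 and 1299 in progenitor cells, a log2 change of 6.43 (SE 0.09). It took 3.73% ± 0.224 of the counts in macrophages and 0.0766% ± 0.00623 in progenitor cells (SD, n = 3 each). Hamp, hepcidin, the hormone that closes the iron exporter, had no count in progenitor cells and 3890, 4049 and 3545 FPKM in macrophages, at least 4412-fold higher. Hmox1, which frees iron from haem, stood at 3323, 3067 and 3343 FPKM against 11.1, 11.3 and 13.3, a log2 change of 8.92 (SE 0.09). Slc11a1, the iron and manganese carrier of the phagosome, stood at 154, 152 and 157 FPKM against 0.06, 0.06 and 0.09. Of 19 iron genes 14 were higher and 3 lower, and with TPM 11 and 8. Of 23 NRF2 and glutathione genes 19 were higher. Prdx1, a peroxiredoxin, stood at 2112, 1949 and 2326 FPKM against 148, 140 and 150.

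Lipid handling, matrix and adhesion genes completed the surface programme. Of 25 lipid handling genes 23 were higher and 1 lower. Abca1, which exports cholesterol, stood at 46.0, 47.9 and 42.6 FPKM against 0.35, 0.29 and 0.33, a log2 change of 7.95 (SE 0.12). Spp1, osteopontin, stood at 519, 467 and 468 FPKM against 0.21, 0.1 and 0.1. Among 20 matrix metalloproteases and inhibitors 17 were higher. Mmp12, the macrophage elastase, stood at 875, 1023 and 1451 FPKM against 0.04 in each progenitor library. Thbs1, thrombospondin 1, had no count in progenitor cells and 1504, 1532 and 1672 FPKM, at least 91106-fold higher, the largest bound among the genes named. Integrins were mixed, with 13 of 24 higher and 7 lower, and 9 and 10 on TPM. Itgb3, a vitronectin receptor chain, rose from 41.1, 40.2 and 39.3 FPKM to 143, 141 and 126, while Itga9 fell from 68.0, 69.2 and 73.5 FPKM to 2.07, 2.1 and 2.25.

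The list of actin, podosome and membrane traffic genes had 25 of 29 members higher and 3 lower with TMM. With library totals 15 were higher and 11 lower. Vim, vimentin, rose under all scalings run, from 27.9, 30.6 and 30.6 FPKM to 1626, 1719 and 1656. Actb, beta-actin, often used as a reference gene, had 1006, 1084 and 1184 FPKM in macrophages and 1232, 1305 and 1253 in progenitor cells, so its levels were lower while its TMM-scaled log2 change was 0.62 (SE 0.08), which turned to -0.207 with library totals. Among 17 genes of the Bcl2 family of survival and death factors, 11 were higher and 4 lower, and 8 and 9 on TPM. Bcl2 itself fell from 20.67, 20.14 and 19.01 FPKM to 0.87, 0.73 and 0.64. Bcl2a1b, of a cluster of near-identical survival genes, stood at 913, 846 and 770 FPKM in macrophages with no count in progenitor cells, and its copies Bcl2a1d and Bcl2a1a, between which reads may be split, at 410 to 485 and 213 to 254. Mcl1, another survival factor, stood at 376, 327 and 368 FPKM against 69.9, 68.5 and 71.0.

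**Figure D4:**
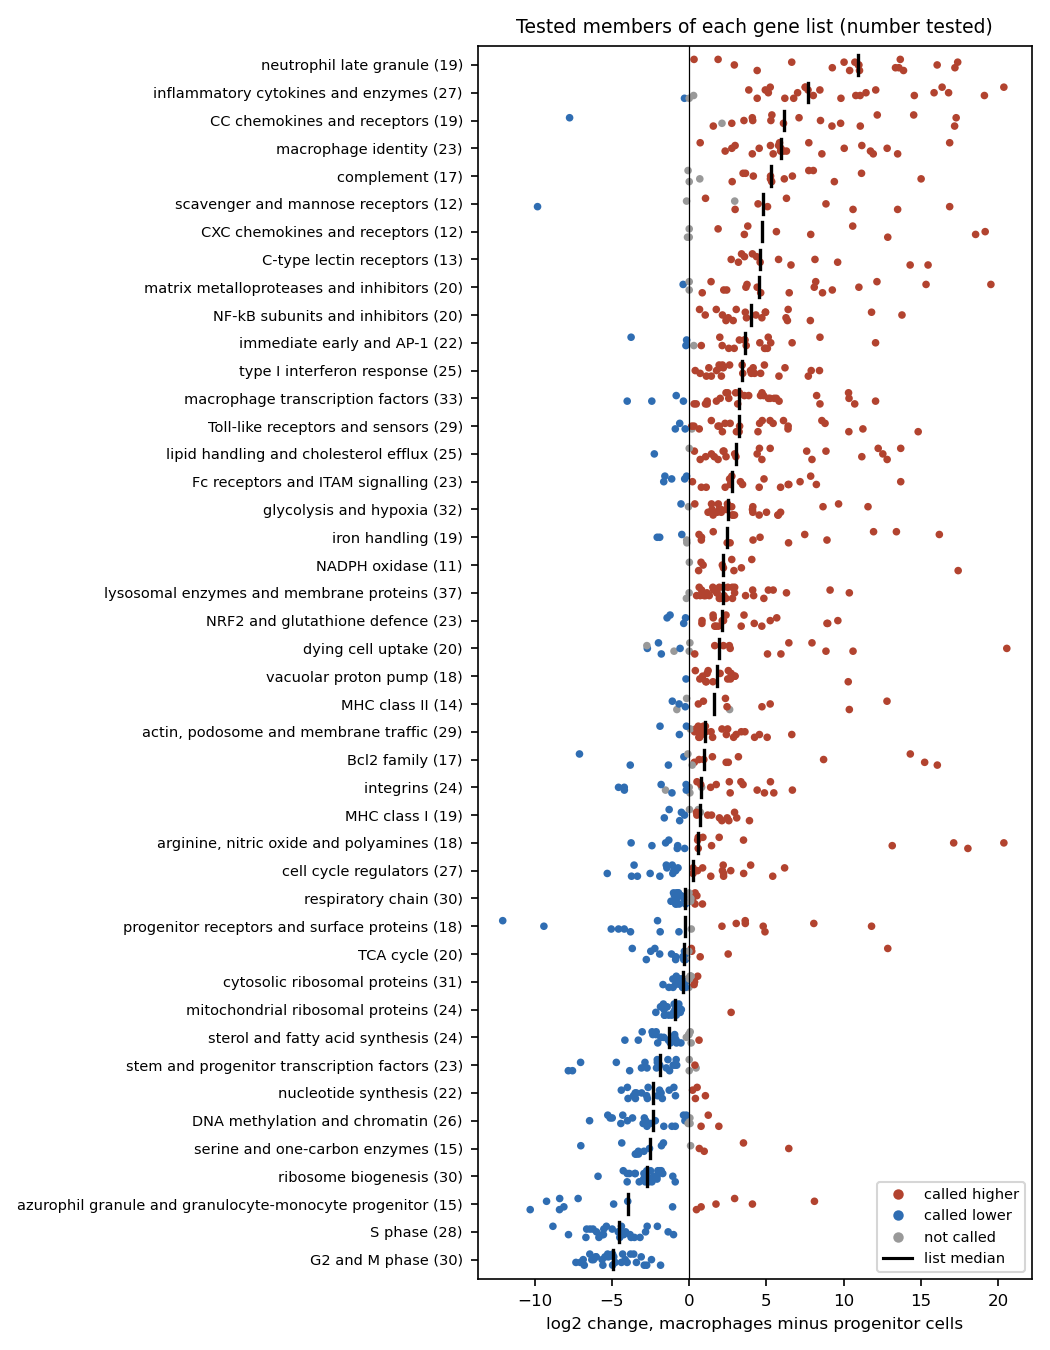
Modelled log2 change (Hoxb8 macrophages minus progenitor cells, horizontal axis) of every tested member of each gene list (neutrophil genes included, the lists of mast cells, eosinophils and other non-macrophage cells left out), with a black bar at the list median and red, blue and grey for called higher, called lower and not called. The lists of S phase and of G2 and M phase lie wholly below 0 with medians of -4.55 and -4.96, and the macrophage identity list lies wholly above 0 with a median of 5.94. Many points far to the right are genes with no or few counts in progenitor cells, and with no count the modelled change depends on the prior count and is not a bound.

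The macrophages were also set beside BMDM. Of the 11793 genes, 8292 (70.3%) were called between Hoxb8 macrophages and BMDM, 3776 higher and 4516 lower in the former. The comparison with progenitor cells shares the Hoxb8 macrophage libraries, so the values are given side by side. Adgre1 differed by -0.02 (SE 0.10) on the log2 scale, which was not called, with 1213 FPKM ± 193 in BMDM. Marco, at 464 FPKM ± 35.5, and Ccl6, at 1329 FPKM ± 166, were also not called. Most of the macrophage identity list did differ, with 5 of 23 tested members higher and 12 lower in Hoxb8 macrophages than in BMDM. The glycolysis and hypoxia list was higher in Hoxb8 macrophages for 27 of 32 members. Vegfa had 114 FPKM ± 20.3 in BMDM, a log2 difference of 2.17 (SE 0.10), and Slc2a1 had 364 FPKM ± 7.48, a difference of 1.43 (SE 0.06). Replication and mitosis genes were lower in Hoxb8 macrophages for 27 of 28 and 30 of 30 members.

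Single genes stood further apart from BMDM. Hamp had 151 FPKM ± 9.35 in BMDM and was higher by 4.82 (SE 0.19) on the log2 scale in Hoxb8 macrophages. Gpnmb, a lysosomal glycoprotein, stood at 35.1, 33.9 and 31.8 FPKM in Hoxb8 macrophages and at 1152 FPKM ± 30.4 in BMDM, a difference of -4.93 (SE 0.10). Elane, which fell to 0.28 FPKM or less, had 77.4 FPKM ± 25.7 in BMDM beside 57.7 to 71.6 in the progenitor cells. The difference of Hoxb8 macrophages from BMDM was -9.04 (SE 0.41). Cxcl16, a membrane chemokine, went from 0 to 37.3, 34.4 and 33.1 FPKM and stood at 312 FPKM ± 12.4 in BMDM.

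**Figure D5:**
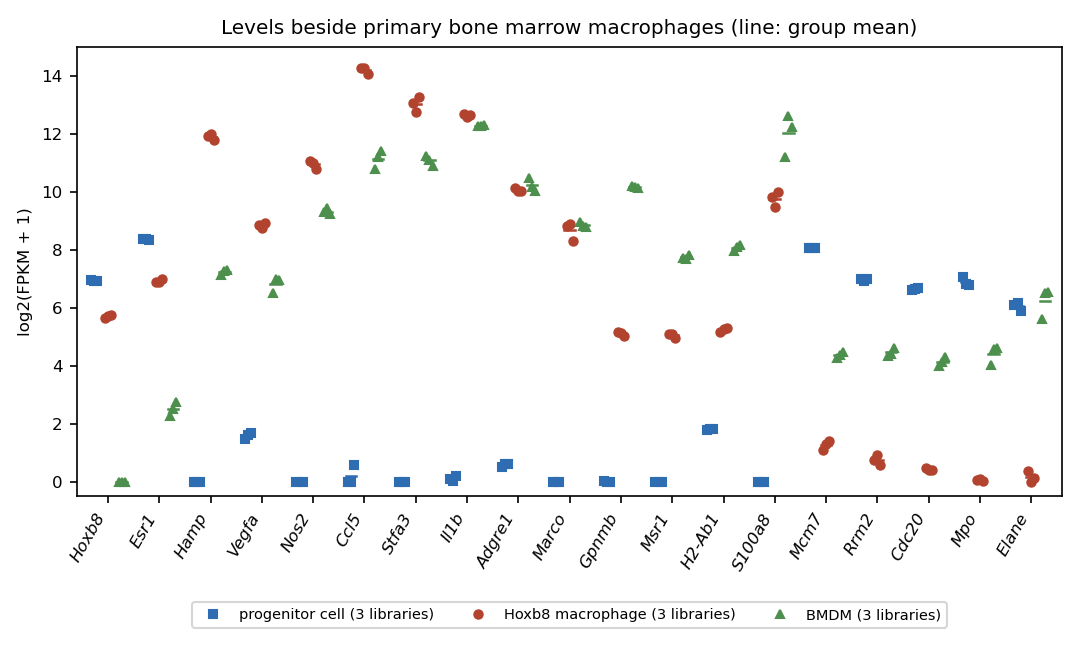
FPKM of single libraries on a log2(FPKM + 1) scale for 19 genes in progenitor cells (blue squares), Hoxb8 macrophages (red circles) and BMDM (green triangles), 3 libraries each, with a line at the group mean. Hamp and Vegfa are highest in Hoxb8 macrophages, Gpnmb, Msr1 and H2-Ab1 are highest in BMDM, and Mcm7, Rrm2 and Cdc20 are lowest in Hoxb8 macrophages with BMDM between the other groups.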

How the data were processed

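Bulk mRNA libraries (oligo(dT) selection, random hexamers) came from 15 samples in 5 groups of 3, of which 6 are described. The submitters' processing notes name HISAT2, Bowtie2, RSEM 1.3.1, DESeq2 1.4.5 and GRCm38.p6. For the step each tool served, the annotation used and strandedness, the answer is not given in the sources used here, so overlapping and antisense genes cannot be told apart. Estimated counts deposited by the authors were rounded to whole numbers. FPKM and TPM were deposited by the authors beside them. A further 15 columns hold averages and were left aside. Of 17030 genes, 16978 matched RefSeq, and 25 symbols turned into dates were restored.

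Genes were tested at FPKM of at least 1 in at least 3 of 15 libraries, so a gene may have passed through another group. edgeR's quasi-likelihood test (two-sided, TMM, all 15 libraries, 1 mean per group, Benjamini-Hochberg adjustment over 11793 genes) gave every log2 change and adjusted p. The SE is the absolute log2 change over the square root of the test's F, and understates counting error where a group holds few counts. The test was also run on simulated data in which few genes changed, up and down alike. That simulation does not cover groups in which most genes differ, as here. A gene at 0 in a group was set to 3 counts per library (0.2 to 0.208 CPM in macrophages, 0.114 to 0.117 in progenitor cells) and its fold written as "at least". With 1 to 3 counts, a counting ratio with its exact 95% interval replaces it. Such limits cover counting error only.

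The gene lists and members were chosen with earlier results of these data known. Genes were named by a rule: the 12 largest rises and 12 largest falls on log2(FPKM + 1) among called, non-overlapping genes with at least 10 FPKM, up to 6 members per list with the largest change and at least 5 FPKM, and a fixed set. Genes outside it are said to be chosen after their values were seen. Promoter windows were read from RefSeq without a test. Alternatives were DESeq2, limma on log2 of FPKM (pseudocounts 1 and 0.1), TPM and quantile-normalised FPKM, library totals, upper quartile, other filters, the 2 groups alone, a replicate block and leaving out each library. Software was Python 3.11.15, DESeq2 1.42.0, limma 3.58.1, edgeR 4.0.16 and R 4.3.3. Some genes the rule names are not reported here.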

Additional observations from a re-analysis of the deposited data

How the results depend on the processing

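The count of called genes stayed between 9741 and 10392 under all alternatives that kept 11793 genes, with 9844 in DESeq2, 9889 with a replicate block and 9741 to 9786 when a library was left out. It was 10916 of 17009 with no low-value filter and 8631 of 9802 at FPKM of at least 5. The split did not stay: the count higher was 3123 with library totals, 3045 and 3120 on FPKM with pseudocounts of 1 and 0.1, and 2544 on TPM, and the count lower was 7195, 7173, 7182 and 7848. Of the 9942 calls, 1256 were called in the opposite direction with library totals, 1898 on TPM and 199 with quantile normalisation. The deviations of same-numbered libraries from their group means had correlations of 0.0312, 0.00325 and 0.00909. Macrophage replicates 1 and 2 correlated best with the progenitor replicate of the same number, and replicate 3 with progenitor replicate 2 (0.0156). All these values were small, and they cannot show whether the numbers pair the libraries. The block moved the calls to 5240 higher and 4649 lower. Of 298 named genes, 287 kept direction and call under all alternatives run. Most of them were named for a large change in these same data, so this count does not speak for the other genes. Actb turned to -0.207 with library totals, -0.214 on FPKM at either pseudocount, -0.512 on TPM and -0.359 with quantile normalisation. Car2 turned to -0.564, -0.545 and -0.565 (pseudocounts 1 and 0.1) and -0.841 on library totals, FPKM and TPM. Pdgfrb turned to -0.502, -0.469, -0.491 and -0.763 in the same order. Ndufa1 turned to -0.013 on FPKM at either pseudocount, -0.31 on TPM and -0.048 with quantile normalisation. Gapdh turned to -0.706 with quantile normalisation, and on TPM Prss34 turned to -0.024 and Spi1 to -0.081. Among lists, the cell cycle regulators turned to 10 higher with library totals, FPKM and TPM, 13 with quantile normalisation and 12 with the upper quartile. The arginine list turned to 7 higher with library totals, FPKM and TPM, and the megakaryocyte and erythroid list to 3 with library totals, TPM and FPKM at a pseudocount of 1. On TPM the actin list turned to 13 higher, the Bcl2 family to 8 and the integrins to 9, and MHC class I to 8 with quantile normalisation. The cause of the turns was not tested. Depth limits genes of a few counts, whose ratios carry wide intervals.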

Other observations

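Gene families were also read by the shared stem of their symbols, a grouping chosen after the values were seen, and are given as counts with no test. They are to be read beside the shares over all tested genes, of which 44.7% were called higher and 39.6% lower. Families with mostly lower members included the nucleoporins (Nup), which form the nuclear pore, with 16 of 19 lower, 1 higher and a median log2 change of -1.53. The kinesins (Kif), motors of which many serve the spindle, had 17 of 28 lower and 10 higher. DEAD-box helicases (Ddx) had 26 of 34 lower and 3 higher, translation initiation factors (Eif) 39 of 53 lower and 11 higher, and zinc finger proteins (Zfp) 156 of 299 lower and 76 higher. Integrator subunits (Ints), which process small nuclear RNAs, had 13 of 15 lower and 1 higher, with a median of -0.69.

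Families with mostly higher members included interleukins and their receptors (Il), with 34 of 51 higher, 4 lower and a median of 3.7. CD antigens (Cd) had 50 of 66 higher and 11 lower, TNF receptor family members (Tnfrsf) 13 of 17 higher and 1 lower, and G protein-coupled receptors named Gpr 19 of 29 higher and 7 lower. Autophagy genes (Atg) had 15 of 18 higher and 2 lower with a median of 0.94, and sorting nexins (Snx), which shape endosomes, 20 of 29 higher and 4 lower. Rab GTPases, which direct vesicles, had 37 of 57 higher and 12 lower, with a median of 0.70. These counts rest on TMM, and no family was counted under another scaling.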
